A study of Mus musculus with 3 samples.

Results

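Whole MafG-intact mouse embryos of E10.5 were compared with whole embryos of the same genotype a day younger, at E9.5. The comparison takes 2 of the 3 arrays of the study, and was chosen by genotype and stage alone. It rests on 12514 genes that were well above background on both arrays, of 13184 genes above background on at least 1 array of the study. Both groups carried the genotype MafF-/-:MafG+/+:MafK-/-, so that MafF and MafK were missing and both copies of MafG were present. The third array held MafF-/-:MafG-/-:MafK-/- embryos of E10.5, called triple null here, and is read beside the pair for reference only. All embryos had a mixed genetic background, and the RNA of each array came from a pool of 3 embryos. No embryos with MafF or MafK were measured, so the day of development is seen only in their absence.

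Each group was 1 array. The differences have no replicate error, and a test was not possible for any of them. "Higher" and "lower" describe these arrays, and a gene was counted when it was at least 2-fold apart and well above background on both. Levels are log2 intensities with 0 at the 75th percentile of each array, and a difference of 1 is a 2-fold difference. In whole embryos, fewer cells of a type and less RNA per cell cannot be told apart.

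The pools also differed in sex. The RNA that coats an inactive X chromosome, Xist, was seen at E10.5 alone, at 0.18. Of the Y-linked genes used as markers of sex, 4 were seen at E9.5 alone, Eif2s3y (at least 196-fold lower at E10.5), Ddx3y (149), Kdm5d (86.1) and Uty (2.64). The triple null array was like the E9.5 array in this respect, with Ddx3y at 0.41, beside 0.17 at E9.5. Stage and sex of the pool therefore cannot be told apart in any value below. The X-linked counterparts of these 4 genes lay inside 2-fold, with Kdm6a at 0.44, Kdm5c at 0.25, Ddx3x at -0.15 and Eif2s3x at -0.21. Of 426 X-linked genes, 2.58% were at least 2-fold higher and 2.82% at least 2-fold lower.

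Between these stages the mouse embryo turns from laying down its axis to building organs. The tail bud, which adds somites at the posterior end, is close to the end of its most active phase, while the first large cohorts of neurons leave the cell cycle in the spinal cord, hindbrain and cranial ganglia. Blood formation also shifts, from primitive red cells and macrophages made in the yolk sac towards definitive lineages that colonise the new liver. Small Maf proteins are bZIP factors that bind DNA as partners of the CNC and BACH proteins, several of which act in red cells, megakaryocytes and the antioxidant response.

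The Maf genes themselves lay inside 2-fold on the 2 arrays. Mafg stood at 1.03 at E9.5 and at 0.48 at E10.5, a difference of -0.55, and its probe failed the background criterion in the triple null pool. Maff differed by -0.09 and Mafk by -0.32 although both genotypes lack their proteins. These 2 probes may target sequence that the deletions left in place, so they do not check the genotype. Over all genes 5.19% were 2-fold apart, so that none in a short list is near that share. Of the 9 genes of the small Maf, CNC and BACH list, none was 2-fold apart. The median was -0.04, with a range of -0.10 to 0.04 over the processing alternatives. The largest difference belonged to Nfe2, the erythroid and megakaryocytic CNC factor, at 0.73, and that of Nfe2l2 (NRF2) was 0.21. Among 27 NRF2-linked antioxidant genes, none was 2-fold apart, with a median of -0.02 (-0.07 to 0.05 over the alternatives), Ephx1 at 0.75 and Nqo1 at 0.64 on one side and Cbr3 at -0.67 on the other.

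Over all 12514 genes, 516 were at least 2-fold higher at E10.5 (4.12%) and 134 at least 2-fold lower (1.07%), together 5.19%. The median difference was -0.05, the quartiles were -0.23 and 0.18, and 86.4% of genes lay within 1.5-fold. Both tails sat largely among dim genes. At or above the median level, 78 of 6257 genes were higher (1.25%) and 14 lower (0.224%). Repeated spots of a probe on 1 array showed how wide dim values scatter. The SD of the difference between 2 spots had a median of 0.47 at levels under -6, of 0.20 from -6 to -4 and of 0.08 above -2, which is array error alone and holds no spread between embryos. With another background correction, normexp, 200 of the higher and 55 of the lower genes stayed 2-fold apart. The triple null minus E9.5 difference had a median of 0.03 over 501 of the higher genes, and of -0.21 over 129 of the lower ones, those above background on that array. It shares the E9.5 array with the difference by which these genes were taken.

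**Figure D1:**
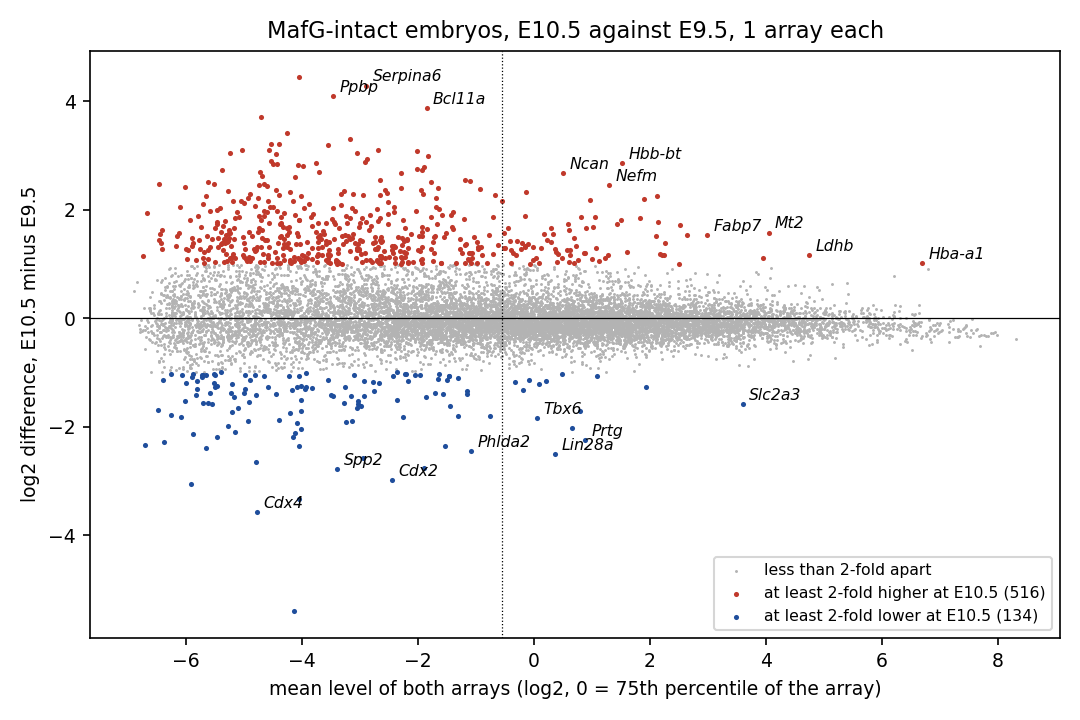
Log2 difference between the MafG-intact arrays (E10.5 minus E9.5) against the mean level of both arrays, 1 point per gene, for 12514 genes above background on both; red points are the 516 genes at least 2-fold higher, blue points the 134 at least 2-fold lower, and the dotted line marks the median level, -0.55. Most 2-fold differences lie to the left of that line, and the labelled genes are described in the text.

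Neuronal structure made up the group that stood farthest from 0, among lists chosen with earlier results of these data known. The counts of this and the later lists stand beside 4.12% of all genes higher and 1.07% lower. Of 20 axon cytoskeleton genes, 11 were at least 2-fold higher at E10.5 and none lower, with a median of 1.63, and 10 of the 11 stayed 2-fold apart with normexp. The neurofilament light chain gene Nefl stood at 1.00 at E9.5, at 3.26 at E10.5 and at 1.05 on the triple null array, 4.79-fold higher at E10.5. Nefm, the medium chain, read 0.06, 2.53 and 0.17 in the same order. For both neurofilaments the MafG-intact E10.5 array stood alone, and the other two lay within 0.11 of each other. Peripherin, Prph, the intermediate filament of peripheral neurons, was above background at E10.5 alone, at least 7.47-fold higher, while 32.7% of the 391 genes seen at E10.5 alone had a bound of at least 2-fold.

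The stathmins, which bind tubulin dimers, were higher in the same way. Stmn2 went from -2.37 at E9.5 to 0.16 at E10.5, Stmn3 from -0.12 to 2.06 and Stmn4 from 0.80 to 2.99. Tubb3, the tubulin isotype used as a general neuronal marker, was 3.30-fold higher (1.66 and 3.39, with 1.53 in the triple null). Doublecortin, Dcx, a microtubule protein of migrating young neurons, had the largest difference of the list members above background on both arrays, at 2.79. Alpha-internexin, Ina, differed by 2.39 and tau, Mapt, by 2.21. The dendritic protein gene Map2 differed by 1.67. At the other end of the list, Crmp1 was just inside 2-fold at 0.95, and the lowest member lay at -0.10.

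RNA-binding proteins of neurons followed, with 6 of 9 genes at least 2-fold higher, none lower and a median of 1.48. The Hu proteins stabilise neuronal messages, and Elavl3 (0.60 at E9.5, 2.42 at E10.5, 0.51 triple null), Elavl4 (-0.04, 1.44, -0.06) and Elavl2 (-1.30, 0.05, -0.75) were all higher. The splicing factor gene Rbfox1 differed by 2.73, Celf3 by 2.06 and Celf6 by 2.30, the last from a dim probe at -6.04 on the E9.5 array.

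Machinery for release was seen as well. Of 21 synaptic vesicle and secretory granule genes, 10 were at least 2-fold higher, none lower, and all 21 were above 0, with a median of 0.97. The granule proteins Scg3 (-0.54 at E9.5, 1.12 at E10.5) and Chgb (-1.28, 0.39), and Rab3a (-1.31, 0.27), which tethers vesicles before fusion, were the brightest 2-fold members. Snap25, a SNARE of the presynaptic membrane, and Syt1, the calcium sensor of release, differed by 2.06 and 1.73 from levels near -5 at E9.5, and with normexp by 0.78 and 0.62. In all, 4 of the 10 stayed 2-fold apart with normexp.

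Of 21 transmitter identity genes, 9 were at least 2-fold higher and 1 lower, with a median of 0.62. The vesicular transporter genes for glutamate, Slc17a6, and for GABA and glycine, Slc32a1, were both higher, by 2.9 and 2.29. Slc32a1 stood at -3.06 at E9.5, -0.76 at E10.5 and -2.83 in the triple null, and Slc17a6 at -5.98, -3.07 and -6.27. The GABA-synthesising enzyme gene Gad2 was above background at E10.5 alone (at least 3.16-fold), whereas Gad1, which makes the same transmitter, was inside 2-fold at -0.38. Of the catecholamine enzyme genes, tyrosine hydroxylase, Th, differed by 2.03 and Dbh by 1.71, whereas Ddc was inside 2-fold at -0.03. Higher too were Slc5a7 and Slc18a3, the choline and vesicular acetylcholine transporters of motor neurons, at 1.58 and with a bound of at least 2.37-fold.

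The peptide gene Sst stood at -1.09 at E9.5, 0.79 at E10.5 and -0.82 in the triple null. Adcyap1, which encodes PACAP, differed by 2.08. The one lower gene was Trh, thyrotropin-releasing hormone, at -2.27 at E9.5 and -3.80 at E10.5.

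Among 16 genes of the proneural bHLH list, 7 were at least 2-fold higher and none lower, with a median of 0.79. Proneural factors drive progenitors towards neurons, and the list also counts Tcf21 (0.09), which is not one of them. Nhlh1 and Nhlh2, which are switched on as cells leave the cycle, differed by 1.87 and 2.36. Inside 2-fold were Neurog1 at 0.31, Neurog2 at 0.43, Neurod2 at 0.12 and Neurod4 at 0.79. Ptf1a, which selects the inhibitory fate in the dorsal spinal cord and hindbrain and also acts in pancreas, differed by 2.81 (-5.38, -2.57 and -5.18 on the triple null array). Atoh1, the factor of rhombic lip and dorsal commissural neurons, was above background at E10.5 alone, at least 3.16-fold higher.

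Of 26 motor, sensory and autonomic neuron factors, 12 were at least 2-fold higher and none lower, with a median of 0.89. Hmx1, a factor of cranial ganglia and the ear region, stood at -1.30 at E9.5, 1.03 at E10.5 and -1.64 in the triple null, a 5.02-fold difference. The zinc finger genes Myt1 (2.54), Myt1l (2.27) and St18 (2.05) form one small family and all 3 were higher. Of the motor neuron factors, Isl2 differed by 1.56, Lhx4 by 1.74 and Mnx1 by 1.40, whereas Isl1 (0.50) and Lhx3 (0.70) were inside 2-fold. Tlx3, of sensory and dorsal horn neurons, was above background at E10.5 alone (at least 4.20-fold), and the neurotrophin receptor gene Ntrk2 differed by 2.03.

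Spinal interneuron factors had 7 of 24 genes at least 2-fold higher, none lower and a median of 0.44. Among them were Pou2f2 (2.07), Skor1 (2.02), Lhx1 (1.52), Lhx9 of commissural cells (1.26), Sim2 and Barhl1 (both 1.13). With normexp 2 of the 7 stayed 2-fold apart. Axon guidance and adhesion genes had 7 of 36 at least 2-fold higher, none lower and a median of 0.19. The axonal adhesion molecule Cntn2 differed by 3.71 from a dim start of -6.56, and the brain proteoglycans Ncan (-0.83 at E9.5, 1.84 at E10.5, -1.0 triple null) and Bcan by 2.67 and 2.62. Ion channels and transmitter receptors were dim, with 1 of 24 genes at or above the median level. In that list 6 were at least 2-fold higher, among them the glutamate receptor subunit Gria2 (2.02), and the median was 0.32, or -0.02 with normexp.

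Neural progenitors gave another picture than neurons. Of 17 progenitor and radial glia genes, 3 were at least 2-fold higher and none lower, and the median of 0.09 turned to -0.03 with normexp. The 3 were Fabp7, the lipid-binding protein of radial glia (2.23 at E9.5, 3.76 at E10.5 and 2.32 in the triple null), and Nfia and Nfib, which promote the later turn to glia (1.78 and 1.65). Sox2 and Pax6, general progenitor factors, were at -0.26 and -0.44. In the ventral and dorsal patterning list, Gsx1 (1.91), Zic4 (1.35) and Gsx2 (1.03) were at least 2-fold higher and the floor plate gene Nkx2-9 lower (-1.71), out of 23 with a median of -0.16.

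Among 16 forebrain and eye field factors, 2 were at least 2-fold higher and the median was 0.36. Bcl11a, a zinc finger factor of neurons and a repressor of fetal globin genes, stood at -3.78 at E9.5, 0.09 at E10.5 and -3.39 in the triple null. It is placed here by the list, and whole embryos do not show in which cells it was expressed. Lhx8 differed by 2.30, and Eomes was above background at E10.5 alone (at least 4.62-fold). Neural crest genes had a median of 0.00 (-0.20 to 0.12 over the alternatives) with 2 of 17 at least 2-fold higher, and both belong to pigment cells, Dct (-5.05 at E9.5, -2.36 at E10.5, -5.19 triple null) and Pmel (1.84).

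**Figure D2:**
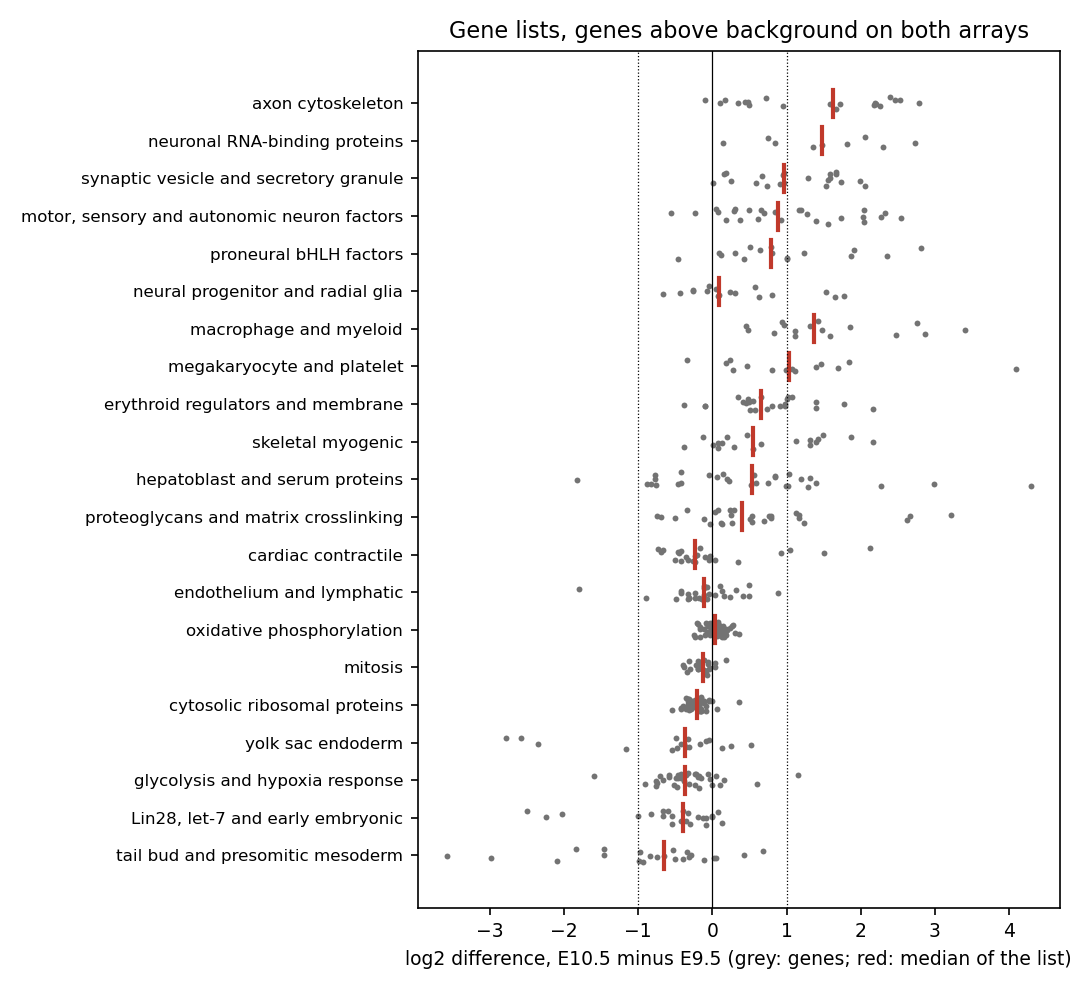
Log2 differences (E10.5 minus E9.5) of single genes, grey points, and list medians, red bars, for 21 of the 72 gene lists; dotted lines mark a 2-fold difference. Axon cytoskeleton (median 1.63) lies farthest to the right and tail bud (median -0.65) farthest to the left, while ribosomal proteins (median -0.21) and oxidative phosphorylation (median 0.03) form narrow bands near 0.

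Blood genes were the second large group. Globin chains are made in a developmental order, with embryonic chains in primitive red cells first and adult chains later. The adult beta-globin gene Hbb-bt stood at 0.09 at E9.5, 2.95 at E10.5 and -1.83 in the triple null, 7.27-fold higher at E10.5. Its 4 probes may also bind near-identical beta-globin transcripts. The embryonic chains moved less, with Hbb-y at 0.91, Hba-x at 0.78 and Hbb-bh1 at -0.01. Hba-a1, which is made at both stages of life, was 2.02-fold higher (6.19, 7.2 and 5.58). Of the 7 globin genes 2 passed 2-fold, and Hbq1b lay on the other side of 0, at -0.94.

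The 120 bases before the start of transcription are shown for 2 adult-type and 2 embryonic globin genes, because these genes lie in the same 2 clusters and differed by different amounts. Capitals mark, on either strand, the core CACCC bound by KLF factors, the promoter box CCAAT and the core GATAA bound by erythroid zinc finger factors. Sequences are from RefSeq, build GRCm38.p6, 5′ to 3′ on the strand of the gene.
Hbb-bt, chr7:103813924-103814043, minus strand: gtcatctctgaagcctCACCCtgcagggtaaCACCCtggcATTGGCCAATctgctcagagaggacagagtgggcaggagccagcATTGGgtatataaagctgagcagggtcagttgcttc
Hbb-y, chr7:103853208-103853327, minus strand: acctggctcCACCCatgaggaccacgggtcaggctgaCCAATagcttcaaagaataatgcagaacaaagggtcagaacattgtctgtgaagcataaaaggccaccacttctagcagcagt
Hba-a1, chr11:32283552-32283671, plus strand: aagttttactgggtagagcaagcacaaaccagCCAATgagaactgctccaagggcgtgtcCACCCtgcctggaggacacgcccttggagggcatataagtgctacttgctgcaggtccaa
Hba-x, chr11:32276480-32276599, plus strand: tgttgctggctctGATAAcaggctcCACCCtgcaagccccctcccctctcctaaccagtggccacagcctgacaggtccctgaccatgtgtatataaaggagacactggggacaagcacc
Hbb-bt held CACCC at 2 positions and CCAAT at 3, of which 2 lie side by side on opposite strands. Hbb-y and Hba-a1 held each of them at 1 position, and Hba-x held CACCC and GATAA at 1 position each. Of 32851 promoter windows of the same length, 31.7% held CACCC, 21.3% CCAAT and 6.23% both, and 3449 windows held GATAA. These matches describe the letters only.

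Red cell genes outside the globin clusters were higher with Hbb-bt. Of 25 erythroid regulator and membrane genes, 7 were at least 2-fold higher and none lower, with a median of 0.66. Rhd, of the Rhesus complex, stood at -1.64 at E9.5, 0.53 at E10.5 and -2.27 in the triple null. Slc4a1, the band 3 anion exchanger, was the brightest of these 7 at E10.5 (2.01, 3.01 and 1.20). Cldn13, Add2, Icam4, Rhag and Epb42 were also at least 2-fold higher, by 1.78, 1.40, 1.40, 1.07 and 1.02. In haem and iron handling 2 of 20 genes passed 2-fold, Alas2, the first and erythroid-specific step of haem synthesis (1.66 at E9.5, 2.82 at E10.5), and Blvrb, biliverdin reductase B (1.01), and the median was 0.09.

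Platelet genes stood farther out than the erythroid list in the main processing, but not with normexp, where the erythroid median was 0.65. Of 14 megakaryocyte and platelet genes, 7 were at least 2-fold higher and none lower, with a median of 1.03 (0.40 with normexp). Pf4, platelet factor 4, stood at 0.18 at E9.5, 1.87 at E10.5 and -1.06 in the triple null. Its neighbour chemokine gene Ppbp was dim at E9.5 (-5.50) and read -1.42 at E10.5, a difference of 4.09. Genes of the von Willebrand receptor, Gp9 (1.84) and Gp1ba (1.40), were higher. For each of these the triple null array lay below both MafG-intact arrays, with Ppbp under the background criterion there.

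Macrophage genes were higher at E10.5. Of 33 macrophage and myeloid genes in the list, 16 were above background on both arrays, and 11 of these were at least 2-fold higher, with a median of 1.37 (0.53 with normexp) and none below 0. A further 11 were above background at E10.5 alone and none at E9.5 alone. Of all 13184 genes, 391 were above background at E10.5 alone and 191 at E9.5 alone. The summed level of the list, in multiples of the 75th percentile of the array, was 1.96 at E9.5, 5.99 at E10.5 and 1.89 on the triple null array. The signalling adaptor Tyrobp stood at -5.96, -2.55 and -6.13 in that order.

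Mpo, the peroxidase of granulocyte precursors and early myeloid cells, read -3.40 at E9.5 and -0.64 at E10.5, and lysozyme, Lyz2, read -2.70 and -0.84. Genes above background at E10.5 alone included Ly86 (at least 19.5-fold), Cd52 (11), the protease gene Ctss (10.2) and the complement component C1qc (9.36). Among them too were the mannose receptor gene Mrc1 (5.74), Ptprc, which encodes the pan-leukocyte antigen CD45 (4.86), and Adgre1, which encodes F4/80 (4.68). The fractalkine receptor gene Cx3cr1 (4.55) and Trem2 (3.64) completed those named. All of these genes with a bound remained under a level of -2 at E10.5. Stem cell and lymphoid genes gave no such shift, with a median of -0.22 and Runx1 at 0.78. None of these 9 was at least 2-fold apart, which in a short list is near the 5.19% of all genes. The granzyme gene Gzma, however, was above background at E10.5 alone (at least 19.5-fold). Complement and antigen presentation genes had 4 of 12 at least 2-fold higher (median 0.40), with C3 at 1.66, and none of the 4 stayed 2-fold apart with normexp.

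Vessel genes had a median near that of all genes, which was -0.05. Of 30 endothelial and lymphatic genes, none was at least 2-fold higher and 1 lower, with a median of -0.11. Over all genes 4.12% were higher and 1.07% lower. Pecam1 lay at 0.10 and Kdr, the main VEGF receptor, at -0.24. The lower gene was Etv2, the factor that starts the blood and endothelial programme and is then shut off, at -0.40 at E9.5, -2.20 at E10.5 and -0.50 in the triple null.

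Muscle types went apart. Skeletal myogenic genes had 8 of 19 at least 2-fold higher, none lower and a median of 0.55 (0.20 with normexp). Myog, the factor of terminal differentiation, stood at -1.78 at E9.5, -0.29 at E10.5 and -1.32 in the triple null, and Myf6 differed by 1.32. Myod1 was above background at E10.5 alone, at least 3.42-fold higher. Fast fibre genes were among the higher ones, with troponin C, Tnnc2, at 0.12, 1.99 and 0.03 and the light chain gene Mylpf at -0.40, 1.00 and -0.54. Subunits of the muscle acetylcholine receptor, Chrna1 and Chrng, differed by 2.17 and 1.31, and the fusion gene Mymk by 1.13.

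For the muscle genes the same stretch before the start is shown for the regulator Myog and for 2 genes of differentiated fibres, since all 3 were at least 2-fold higher. Capitals mark E-boxes, CANNTG, the cores that myogenic bHLH factors bind, whose pattern reads the same on both strands. Sequences are from RefSeq, build GRCm38.p6, on the strand of the gene.
Myog, chr1:134289884-134290003, plus strand: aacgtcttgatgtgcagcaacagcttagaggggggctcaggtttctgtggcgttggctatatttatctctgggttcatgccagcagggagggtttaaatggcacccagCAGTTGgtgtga
Chrna1, chr2:73580339-73580458, minus strand: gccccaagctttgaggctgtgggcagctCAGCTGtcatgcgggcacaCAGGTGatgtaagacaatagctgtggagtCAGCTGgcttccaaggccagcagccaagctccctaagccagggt
Mylpf, chr7:127211488-127211607, plus strand: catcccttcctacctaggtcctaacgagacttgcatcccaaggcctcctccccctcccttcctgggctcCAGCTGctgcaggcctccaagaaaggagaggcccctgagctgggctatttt
Chrna1 held 3 E-boxes and Myog and Mylpf 1 each. At least 1 E-box was present in 40.2% of all 32851 windows.

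Cardiac muscle did not share this. Of 24 cardiac contractile genes 3 were at least 2-fold higher, and the median was -0.23 with 18 below 0. The 3 were the calsequestrin gene Casq2 (2.13), the atrial sarcolipin gene Sln (1.5) and Tnnt1, slow skeletal troponin T (1.04), which is not a heart gene alone. Myh6, atrial myosin, stood at 2.79 at E9.5, 2.37 at E10.5 and 3.38 in the triple null. Cardiac transcription factors had a median of -0.24, and 1 of 19 passed 2-fold, Tbx2, the repressor of chamber genes in the atrioventricular canal and a limb and eye factor (-0.07, 1.05 and 0.04). Smooth muscle genes had none of 11 at least 2-fold apart and a median of -0.22, with Actg2 at -0.72.

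Genes of the posterior growth zone were among those lower at E10.5. Of 23 tail bud and presomitic mesoderm genes, 6 were at least 2-fold lower and none higher, 19 lay below 0 and the median was -0.65. Cdx2, a caudal factor that maintains axial progenitors, stood at -0.96 at E9.5, -3.94 at E10.5 and -0.66 in the triple null. Cdx4 read -2.98, -6.56 and -3.14, and Cdx1 was above background at E9.5 alone, at least 4.67-fold lower at E10.5, where 30.4% of the 191 genes seen at E9.5 alone had a bound of at least 2-fold. All 3 caudal genes of the mouse were thus lower.

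Tbx6, which commits cells to paraxial mesoderm, was 3.59-fold lower (0.98, -0.86 and 0.81). Its target Msgn1 differed by -2.10, the progenitor marker Nkx1-2 by -1.46 and brachyury, T, by -1.46 (-1.13, -2.59 and -1.22). The oscillating repressor gene Hes7 was above background at E9.5 alone (at least 3.42-fold). Sp5, a direct Wnt target, was just inside 2-fold at -0.99, and so was Mesp2, which sets the somite boundary, at -0.98. Of the 6 genes, 5 stayed 2-fold lower with normexp. The notochord list, with a median of -0.11 over 12 genes, had no gene past 2-fold other than T.

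Somite derivatives followed neither way as a whole. In the somite, sclerotome and tendon list 1 of 15 genes was higher and 1 lower, with a median of -0.11. The tendon progenitor factor Scx stood at -0.27 at E9.5, 1.46 at E10.5 and -0.13 in the triple null. Meox1, of the young somite, was at -0.97. Cartilage and bone genes had 3 of 17 at least 2-fold higher and 1 lower, and the median of 0.30 turned to -0.02 with normexp. Runx2, the bone master factor, differed by 2.51 from a dim start (-6.87), and 0.46 with normexp.

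The Hox genes, which are switched on in order along their clusters, differed by paralogue number, but without an even gradient. The median was -0.01 in groups 9 and 10, beside 0.14 in groups 5 to 8. Of 37 Hox genes, 33 were above background on both arrays. In paralogue group 1, whose members act early and are then shut off, Hoxb1 stood at -0.45 at E9.5, -1.84 at E10.5 and -0.38 in the triple null, a difference of -1.39. Hoxd1 read -1.43, -2.48 and -1.34 and differed by -1.05. Groups 2 to 4 lay below 0 in 9 of 9 genes, with a median of -0.25, all inside 1.5-fold. With scaling on the median of detected genes, and with the brightest probe, 8 of the 9 lay below 0.

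Groups 5 to 8 lay above 0 in 8 of 10 genes (median 0.14), and groups 9 and 10 were divided, 3 above and 4 below, from Hoxa10 at 0.62 to Hoxc10 at -0.86. In groups 11 to 13 all 4 genes lay above 0 (median 0.36), but 2 of the 4 lay below 0 with normexp, where the median was -0.03. A further 4 genes of groups 12 and 13 were above background at E10.5 alone and none at E9.5 alone. Over all genes these counts were 391 and 191. The 4 were Hoxb13, Hoxc12, Hoxc13 and Hoxd12, with bounds of 2.82-fold, 4.63-fold, 1.45-fold and 1.66-fold. By cluster the medians were -0.01 for Hox A, -0.19 for Hox B, -0.19 for Hox C and -0.11 for Hox D, and the first 3 turned sign under at least 1 alternative.

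**Figure D3:**
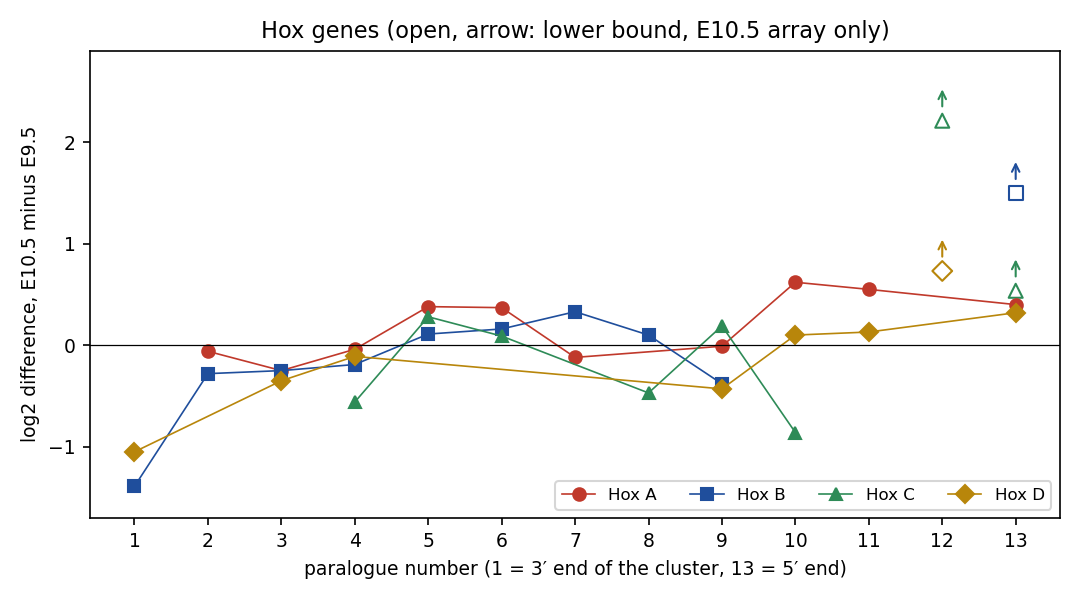
Log2 difference (E10.5 minus E9.5) of Hox genes against paralogue number, with 1 colour and marker per cluster; filled markers are genes above background on both arrays, and open markers with arrows are lower bounds of 4 genes above background at E10.5 alone. The genes plotted at paralogue number 1 lie at -1.39 and -1.05, and the open markers lie at paralogue numbers 12 and 13.

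Early embryonic regulators were lower beside the tail bud genes. The RNA-binding protein Lin28a blocks maturation of let-7 microRNAs and is lost as tissues mature; mature microRNAs were not measured on this array. Lin28a stood at 1.62 at E9.5, -0.88 at E10.5 and 2.02 in the triple null, 5.66-fold lower at E10.5. The neural and somite adhesion gene Prtg (2.01, -0.23 and 1.83) and the orphan receptor gene Nr6a1 (1.67, -0.36 and 1.77), which represses pluripotency genes and shapes trunk length, were 4.72-fold and 4.09-fold lower. On each of these genes the MafG-intact E10.5 array was the low one and the other two were within 0.40 of each other.

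The early embryonic list, as all lists here, was chosen with earlier results of these data known, so its count and median are description only. In it 4 of 23 genes were at least 2-fold lower and none higher, 20 lay below 0 and the median was -0.40. Sall4 was the fourth, at -1.0. Lin28b lay at -0.66, and the growth factors' RNA-binding proteins Igf2bp1 and Igf2bp3, which are let-7 targets, at -0.40 and -0.30, whereas Hmga2, another let-7 target, lay at 0.13. The de novo DNA methyltransferase gene Dnmt3b was at -0.55. Its list, DNA methylation enzymes, had none of 11 at least 2-fold apart and a median of -0.14. Germ cell genes had 3 of 14 at least 2-fold lower and none higher, with a median of -0.48. They were Ifitm1 (1.65, -0.06 and 1.75), which is also a presomitic mesoderm gene, Ddx4 (-1.27) and Dppa3 (-1.24), both dim.

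**Figure D4:**
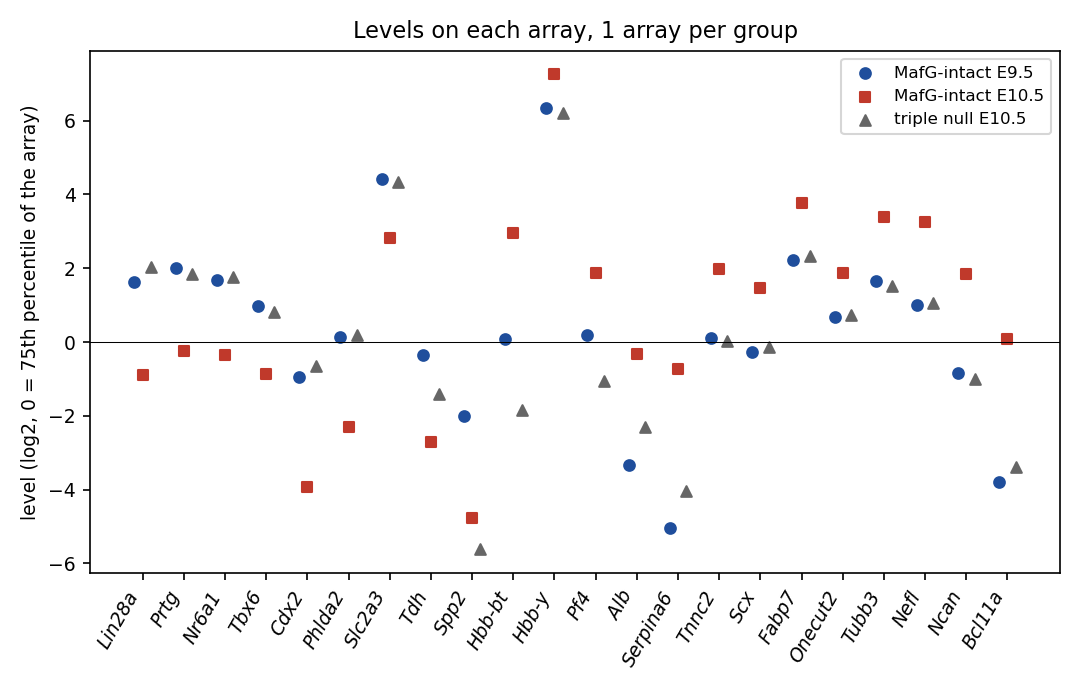
Levels of 22 genes on each array (log2, 0 at the 75th percentile of the array): blue circles MafG-intact E9.5, red squares MafG-intact E10.5, grey triangles triple null E10.5, 1 array per group and no error bars. For Lin28a, Tbx6 and Slc2a3 the red squares lie below both other arrays, and for Fabp7, Nefl and Ncan above both.

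Extraembryonic and liver genes touch on what was dissected as well as on age. Yolk sac endoderm genes had 4 of 18 at least 2-fold lower, none higher and a median of -0.37, and all 4 stayed 2-fold lower with normexp. Spp2 stood at -2.0 at E9.5, -4.78 at E10.5 and -5.62 in the triple null, and Amn, the amnionless partner of cubilin, at -1.65, -4.23 and -3.69. Tdh (-0.35, -2.70 and -1.40) and Rhox5 (0.80, -0.37 and -0.32) completed the 4, and Trap1a was above background at E9.5 alone (at least 10.7-fold). Here the E9.5 array was the high one, and both E10.5 arrays lay below it.

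The summed level of the yolk sac list did not differ in the same way, at 36.4 at E9.5, 37.5 at E10.5 and 29.0 in the triple null, and its brightest member, alpha-fetoprotein, Afp, which liver makes too, lay at 0.52. Trophoblast and decidua genes had 2 of 9 at least 2-fold lower and none above 0 (median -0.73), with Cdx2, already described for the tail bud, and Pla1a (-1.42). The summed level of this list was 3.52 at E9.5, 2.05 at E10.5 and 3.32 in the triple null. That sum includes Cdx2 and Hand1 (0.68, 0.13 and 0.50), and Hand1 is also in the cardiac factor and face lists. It is therefore not a measure of trophoblast alone. Whether carry-over of extraembryonic tissue had a part in these values was not tested.

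Liver genes were higher at E10.5. Of 30 hepatoblast and serum protein genes, 9 were at least 2-fold higher and 1 lower, with a median of 0.54 (0.09 with normexp). Albumin, Alb, stood at -3.32 at E9.5, -0.33 at E10.5 and -2.30 in the triple null. The corticosteroid-binding globulin gene Serpina6 had the largest difference of any list member above background on both arrays, 4.29 (-5.04, -0.74 and -4.03). Heparin cofactor, Serpind1, differed by 2.27, Ambp by 1.29 and fibrinogen beta, Fgb, by 1.02. The lower gene was Tdo2, which degrades tryptophan, at -1.82 and dim.

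Coagulation factors had 4 of 14 at least 2-fold higher and none lower, with a median of 0.33 (0.05 with normexp). They were plasminogen, Plg (2.06), Cpb2 (1.31), prothrombin, F2 (1.20), and antiplasmin, Serpinf2 (1.11), and F12 was above background at E10.5 alone (at least 4.49-fold). Apolipoprotein genes, which yolk sac and liver share, lay the other way, with 2 of 12 at least 2-fold lower, none higher and a median of -0.30. Apoa1 stood at -2.19 at E9.5, -4.08 at E10.5 and -5.36 in the triple null, and Apoa5 differed by -2.34 with the E10.5 level at -7.87. In gut, pancreas and lung, 3 of 25 genes were higher and 3 lower, with a median of -0.23. Glucagon, Gcg, the first hormone of the pancreas, was higher and so were Ptf1a and Mnx1, while Cdx2, the trefoil gene Tff3 (-1.87) and the protease gene Tmprss2 (-2.12) were lower. The acinar elastase gene Cela1 was seen at E10.5 alone (at least 18.3-fold).

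Limb and face genes were mostly inside 2-fold. Limb bud genes had 3 of 28 at least 2-fold higher and none lower (median 0.06, -0.06 to 0.11 over the alternatives). They were the shoulder girdle and dermal factor Tbx15 (-4.24 at E9.5, -1.13 at E10.5, -4.0 triple null), Shox2, of the proximal limb (2.34), and Lhx9. Pharyngeal arch and face genes had 2 of 30 at least 2-fold higher, with a median of 0.09 (-0.03 to 0.14), namely Gsc, goosecoid, a patterning factor of the jaw arch (-4.35, -1.46 and -4.13), and Lhx8. Kidney and gonad genes had 1 higher, Lhx1, and 1 lower, Pax8 (-1.04), of 21, with a median of -0.06, and the podocyte gene Nphs1 was seen at E10.5 alone (at least 3.72-fold).

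Sense organ and surface lists held genes past 2-fold on either side, while 4.12% of all genes were higher and 1.07% lower. In the ear vesicle list the otoconial protein gene Oc90 was higher (-3.92, -1.39 and -4.25) and Fgf3 (-1.90) and Pax8 lower, of 11 genes, with a median of -0.24 (-0.26 to 0.03). The lens list had 1 of 10 higher, Pitx3 (1.74, and 0.37 with normexp), and a median of -0.02 (-0.20 to 0.03). Of 7 pituitary genes 1 was higher, Lhx4, with a median of 0.13 (-0.15 to 0.19). Surface ectoderm and keratin genes had Krt5 (1.27) and Trp63 (1.24), both of the basal layer, higher and Krt23 (-1.34) lower, of 28, with a median of -0.22, and Krt8, of simple epithelia, lay at -0.88.

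The counts of the signalling lists stand beside 5.19% of all genes at least 2-fold apart. In the Wnt list 1 of 47 was lower, the planar polarity receptor gene Ptk7 (0.47 at E9.5, -0.85 at E10.5, -0.12 triple null), and the median was -0.14. Fgf5 (1.11) was higher and Fgf3 lower of 27 FGF genes (median -0.22). Among 39 TGF-beta and BMP genes, 2 were at least 2-fold higher, Lefty1 (1.10) among them, and the ligands Bmp2 (-1.28) and Bmp3 (-1.27) and the antagonist Fst (-1.06) were lower, with a median of -0.05. None of 15 Hedgehog genes was 2-fold apart (median -0.17, Ptch1 at -0.66).

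In the Notch, Hes and Id list Id4, a dominant-negative HLH protein of neural precursors, was higher (-0.12, 1.74 and -0.06), as was Heyl (1.01), and Hes3, of early neuroepithelium, was lower (-1.75), of 25 with a median of 0.17. Retinoic acid enzymes went opposite ways, with Aldh1a1 higher (1.91) and Aldh1a3 lower (0.26, -0.91 and -0.21), the only 2 of 18 at least 2-fold apart. The median of that list was -0.15. In the growth and imprinting list Igf1 (-0.86, 0.41 and -0.64), Igfbp7 (1.83), Dcn (1.23) and Zim1 (1.04) were higher and Phlda2, an imprinted gene that restrains placental growth, was lower (0.14, -2.31 and 0.20), of 28 with a median of -0.09.

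Matrix genes were higher in part. Proteoglycan and crosslinking genes had 7 of 28 at least 2-fold higher and none lower, with a median of 0.40, among them osteoglycin, Ogn (3.22, from -6.0), decorin, Dcn (-0.23, 1.00 and -0.60), lysyl oxidase, Lox (1.17), and fibulin, Fbln5 (1.17), beside the neural Ncan and Bcan. Collagen chains had 2 of 31 higher and a median of 0.28, namely Col8a2 (1.59) and Col25a1 (1.38, but -0.03 with normexp). Matrix proteases and inhibitors had a median of 0.17 with Mmp9 (-1.42) and Timp4 (-1.37) lower, of 20. Cadherin family genes had 3 of 20 higher, Pcdh10 (1.48), Pcdh20 (1.26) and Cdh22 (1.04), with a median of 0.09 (-0.17 to 0.15).

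General cell functions formed narrow bands. Of 59 cytosolic ribosomal protein genes, none was 2-fold apart, but 57 lay below 0, with a median of -0.21 beside -0.05 for all genes and 42.8% of all genes above 0. The median ranged from -0.23 to -0.04 over the alternatives. DNA replication genes lay below 0 in 27 of 32 (median -0.15), with 1 at least 2-fold lower, the primase gene Prim2 (2.57 at E9.5, 1.30 at E10.5, below background in the triple null). Mitosis genes lay below 0 in 22 of 25 (median -0.13). D and E cyclins and CDK inhibitors had a median of 0.14 and none of 25 at least 2-fold apart, with the inhibitors Cdkn2b and Cdkn2c at 0.91 and 0.90 and Ccne2 at -0.65. Oxidative phosphorylation had none of 54 at least 2-fold apart and a median of 0.03.

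Glycolysis and hypoxia genes lay below 0 in 31 of 36, with a median of -0.37 (-0.45 to -0.29). The high-affinity glucose transporter gene Slc2a3 was 3.01-fold lower (4.41 at E9.5, 2.81 at E10.5, 4.35 triple null), while Slc2a1, Ldha and Pgk1 lay inside 2-fold at -0.67, -0.58 and -0.44. Ldhb, which encodes the lactate dehydrogenase subunit of oxidative tissues, was the one gene at least 2-fold higher (4.17, 5.33 and 4.21). The A and B subunit genes of this enzyme thus lay on opposite sides of 0. Cholesterol synthesis had none of 22 at least 2-fold apart and a median of -0.08. Amino acid stress genes had Trib3 (-1.65) and the arginine transporter gene Slc7a3 (-1.12) lower of 21, with a median of -0.26. Heat shock and immediate early genes had 1 of 24 lower, Egr2, which is also the hindbrain factor Krox20 (-1.43), with a median of -0.03 (-0.11 to 0.02) and Jund at 0.62 and Myc at -0.85.

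Normexp pulls dim genes towards 0, and how many higher genes stayed at least 2-fold apart under it differed between lists. It kept 4 of the 7 higher proneural bHLH genes, 6 of the 12 motor, sensory and autonomic factors, 4 of the 9 transmitter genes, 3 of the 7 guidance genes and 2 of the 6 channel and receptor genes. Among blood lists it kept 3 of 7 erythroid, 4 of 7 platelet and 6 of 11 macrophage genes. It kept 3 of 8 skeletal muscle, 1 of 3 cardiac contractile, 1 of 3 limb bud, 4 of 9 hepatoblast, 1 of 4 coagulation and 5 of 7 proteoglycan genes, and none of the 3 cartilage genes. On the lower side it kept 3 of 4 early embryonic, 1 of 3 germ cell and 1 of 2 apolipoprotein genes. Tyrobp (1.63), Mpo (2.16), Alb (2.4), Serpina6 (2.79), Cdx2 (-2.48) and Lin28a (-2.43) stayed past 2-fold with normexp, while Snap25, Casq2 (0.61), Shox2 (0.64), Chrna1 (0.51) and Plg (0.78) did not.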

How the data were processed

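Total RNA of whole embryos was Cy3-labelled and read on Agilent arrays of 1 colour, 1 array per group, all on slide 1 and scan 1. The authors deposited scanner output of Agilent Feature Extraction 9.5.3.1 (protocol GE1-v5_95_Feb07, array design 014868, annotated on mm7), per the file headers. The signal is a linear, background-subtracted intensity, per the file headers. The deposited value table repeats this intensity after rounding, uncentred and linear; values differ by up to 0.497%. Column medians were 83.4 for E9.5, 115 for MafG-intact E10.5 and 84.0 for triple null.

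The log2 intensity of 43379 non-control spots was taken minus the 75th percentile of each deposited array (1064, 1420 and 1078 in the same order). Outlier spots (83, 52 and 59) were left out, and no spot was saturated. Of 41174 probes, 69.1%, 70.4% and 69.2% were well above background. Through RefSeq accessions in a table of GRCm38.p6, 22950 probes had 1 gene symbol. For each gene the probes above background on any array were averaged, and a gene counted as above background on an array when at least 1 of its probes was. Of 170 genes 2-fold apart with several probes, 162 had all probes on one side. A gene above background on 1 array has a bound, its bright level over the higher of its own dim level and the lowest level above background there (-7.04 at E10.5, -6.89 at E9.5).

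The number of arrays limits the precision, and no test was possible. The members and the 72 lists (1626 genes, 1342 above background on both arrays) were chosen with earlier results of these data known. Named were list members at least 2-fold apart or with a bound, the 2 farthest apart in other lists, the 30 highest and 30 lowest bright genes and the 15 largest bounds each way; some list members inside 2-fold are named beside them, chosen after their values were seen. Alternatives were normexp (offset 50, limma), quantile, median and spike-in scaling, other dim filters, the brightest probe, other thresholds, the deposited table, and no X or Y genes. The steps were tested on simulated data. Software was limma 3.58.1 under R 4.3.3, and numpy 2.4.6, pandas 2.3.3 and matplotlib 3.10.9 under Python 3.11.15. Some genes that the naming rule takes are not reported here.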

Additional observations from a re-analysis of the deposited data

Results flagged for a closer look

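Among 10089 probes with no single gene symbol that were above background on both MafG-intact arrays, 314 were at least 2-fold higher at E10.5 (3.11%) and 125 at least 2-fold lower (1.24%). They enter no comparison in the report. A further 149 were at least 2-fold higher by a bound and 76 at least 2-fold lower by a bound, each seen on 1 array of the pair.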

How the results depend on the processing

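No paired analysis was possible because each group has 1 array. The 516 higher and 134 lower genes became 200 and 55 with normexp, 78 and 14 at or above the median level, 853 and 374 with no filter on dim probes, 195 and 47 at 3-fold and 1159 and 542 at 1.5-fold. The 186 genes with a bound of at least 2-fold became 32 with normexp. Quantile normalization gave 472 and 157, scaling on the median of detected genes 572 and 116, scaling on spike-in probes 501 and 139, the brightest probe 524 and 127, the deposited values 509 and 136, and leaving out X and Y genes 505 and 122. The share of higher genes among those 2-fold apart was 79.4%, 69.5% with no dim filter and at most 84.8% elsewhere. The median of all genes, -0.05, became -0.10 with normexp. Of 642 recomputed list medians 566 stayed within 0.1, and 17 of 72 lists took both signs over the settings. Of the lists whose median lay at least 0.2 from that of all genes, ion channels and receptors (-0.02 with normexp) and cartilage and bone (-0.02 with normexp and -0.02 at or above the median level) changed sign. The other 15 lists of the 17 lay nearer to it. Of 250 genes recomputed over the settings, Col25a1 (-0.03 with normexp) changed sign. These 250 were the list members at least 2-fold apart and the highest and lowest bright genes, some of them inside 2-fold (Sp5 at -0.99). Among all 516 higher and 134 lower genes, normexp turned the sign of 9. The cause of these changes in sign was not tested. Spike-in probes differed by a median of 0.01, from -0.34 to 0.07. Dim genes carry the widest spot scatter, so their folds are the least certain.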

Other observations

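The gene farthest apart between the MafG-intact arrays among those above background on both was in none of the lists, and is named here after its value was seen. S100g, the calcium-binding protein calbindin-D9k, stood at -1.43 at E9.5, -6.83 at E10.5 and -6.24 in the triple null, a 42.3-fold difference from 1 X-linked probe. It was low on both E10.5 arrays. Its MafG-intact E10.5 level lay near the lowest level above background there, -7.04, where spots scatter most, so the fold is uncertain. The membrane carbonic anhydrase gene Car4 was 6.82-fold lower at E10.5 (-0.50, -3.27 and -0.76), with the triple null array near the E9.5 array.

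Other bright genes outside the lists were higher at E10.5. The zinc-binding metallothionein genes Mt1 (1.25 at E9.5, 3.02 at E10.5, 1.96 triple null) and Mt2 (3.26, 4.84 and 3.89) differed by 1.77 and 1.58, and the triple null array lay between the MafG-intact arrays. Crym, a thyroid hormone-binding protein, stood at 0.92, 2.75 and 1.04, and Mllt11, a gene of young neurons, at 1.88, 3.41 and 2.02. On the lower side were arginase, Arg1 (1.63, 0.56 and 1.59), and the lactate transporter gene Slc16a1 (-0.91).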
